A study of Homo sapiens with 6 samples.

Results

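The genes described here encode the core proteins of the spliceosome and the 2 large families of RNA-binding proteins that steer it, the SR proteins and the hnRNPs. They were taken by name alone: every identifier whose gene name has no hyphen and begins with SNRP, SF3A, SF3B, U2AF, PRPF, HNRNP, or SRSF followed by a digit. This gave 85 of the 17721 identifiers listed in either of 2 deposited tables of FPKM per gene, which divides the fragments of a gene by its length and by the size of the library. The labels describe 6 RNA samples of U2OS, an established human osteosarcoma cell line. They are 2 samples of RNA co-precipitated with a mutant of NSun2, an RNA cytosine methyltransferase, from DNMT1 knockdown cells carrying a short hairpin RNA (shDNMT1), 2 such samples from control cells (shNC, labelled WT), 1 input from shDNMT1 cells and 1 input from shNC cells. The labels have the NSun2 mutant plasmid transfected into both kinds of cell, and do not say whether the cells were a clone or a pool. Neither table names a sample, so they are called the second and the first table. Neither can be tied by its header to a kind of cell, to a condition, or to input rather than co-precipitated RNA. A value may thus reflect recovery with NSun2 and need not be an amount in the cell. Level and abundance below mean only the FPKM listed in a table. Each gene has 1 value per table, and no replicate error or test exists for any difference below.

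Introns are removed from pre-mRNA by the spliceosome, which assembles anew on each intron from small nuclear ribonucleoproteins (snRNPs) named U1, U2, U4, U5 and U6 after their RNAs. Each of these RNAs except U6 carries a ring of Sm proteins, to which each snRNP adds proteins of its own. U1 recognises the 5′ splice site, U2AF the 3′ splice site and U2, through the SF3A and SF3B complexes, the branch point. The tri-snRNP of U4, U6 and U5, rich in PRPF proteins, then joins and is remodelled into the catalytic form. SR proteins bind exons and mostly promote their inclusion, while hnRNPs coat the pre-mRNA and often act against inclusion, although both families also do other work in RNA export, stability and translation.

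Of the 85 identifiers, 70 were genes of these classes and 15 were pseudogenes by their name. All 70 genes had a value in both tables, as did 3 of the pseudogenes. The 12 members listed in 1 table only, 9 in the second and 3 in the first, were pseudogenes by name with 0.0720 to 0.891 FPKM. In the second table were 82 of the 85 members, in the first 76 and in both 73. Of all 17721 identifiers these numbers were 16824, 15167 and 14270. The median mean level of the 14270 genes in both tables was 4.93 FPKM, and 63 members lay above it. The other 10 members in both tables lay at or below it. Above it, the members had a median level of 40.2 FPKM, against 16.5 FPKM for all such genes. Among the first 1000 genes in both tables were 22 members, SR proteins and hnRNPs included. At most 1000 of the 17721 identifiers can rank so in both, and how many did was not counted. Together the members held 0.781% of all FPKM in the second table and 0.625% in the first, and 1.4% and 1.23% of the FPKM of genes annotated as protein coding.

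Among all genes, DNMT1 was listed at 9.36 FPKM in the second table and 23.3 FPKM in the first, and NSUN2, where RNA of the transfected plasmid would count as well, at 1147 and 559 FPKM. Of 8 markers of osteoblasts and bone matrix, 5 had a value in the second table and 2 in the first. Their sum, 39.5 and 81.4 FPKM, was almost wholly the alkaline phosphatase ALPL, while SPARC, abundant in osteoblasts, was listed at 0.0328 FPKM in the second table only. Of 5 markers of other cell types only EPCAM had a value, at 0.555 and 2.20 FPKM. Absolute depth is unknown. The locus given for 42 of the 85 members was shared with another identifier, so that fragments could be divided between genes upstream. The same held for 47.5% of all identifiers.

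Most splicing genes were a little higher in the second table, and few differed much. The difference is given as a log2 ratio of second over first after adding 1 FPKM to both. Of the 63 members above the median level, 53 were higher in the second table and 10 lower, or 84.1% higher, against 57.2% higher and 42.8% lower among all 7135 genes above that level. A difference of at least 1.5-fold on this scale was found for 5 members, higher in the second table in each case, or 7.94% of them, against 12% of all genes. None was at least 1.5-fold lower, against 5.55% of all genes, or 2-fold lower, against 0.869%. Without the limit on level 59 of 73 members were higher and 14 lower, against 54.8% and 45.2% of all genes. Past 1.5-fold were then 7 higher and 1 lower, against 12.2% and 7.83% of all genes, and past 2-fold 1 higher and none lower, against 2.04% and 1.68%. The members' median log2 ratio was 0.19 and that of all genes 0.08. The interquartile range of the members' ratios was 0.31, against 0.58 for all genes. At a mean of at least 10 FPKM it was 0.31 for 58 members and 0.54 for all 4941 genes. At that level 5 of the 58 members were at least 1.5-fold higher, against 9.59% of all genes, and relative to the median of all genes of like gene density 4 of 63 were, against 6.36%, so the share of large differences was near that of all genes in these settings.

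**Figure D1:**
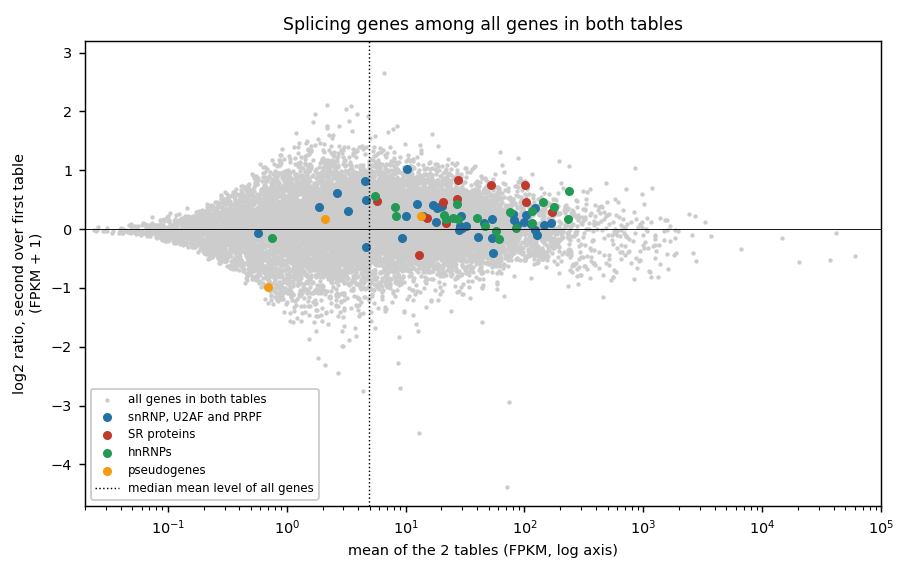
The horizontal axis is the mean of the 2 tables in FPKM on a log scale and the vertical axis the log2 ratio of second over first on the FPKM + 1 scale, with all 14270 genes in both tables in grey and splicing genes in colour. The coloured points to the right of the dotted line at 4.93 FPKM lie mostly above 0 and within the grey cloud, with PRPF38A as the highest at 1.02.

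The Sm proteins build the ring common to U1, U2, U4 and U5. All 8 genes were higher in the second table, against 57.2% of all genes above the median level. The amounts were small, with log2 ratios of 0.05 to 0.36 and a median of 0.14. None reached 1.5-fold, and against the median of all genes of like gene density 3 of the 8 were higher. SNRPB, which encodes SmB and SmB′, had 148 FPKM in the second table and 142 FPKM in the first. SNRPD2 had 137 and 106 FPKM, the widest difference of the ring, and shares its locus with QPCTL (20.7 and 31.7 FPKM). SNRPG had 118 and 110 FPKM. The ring holds 1 copy of each protein, but the FPKM listed for its genes was far from equal in either table. Whether the same holds for their RNA in the cell was not tested. SNRPF had 56.9 and 50.6 FPKM, SNRPE 47.3 and 43.8 FPKM, and SNRPD3, which shares its locus with 3 other identifiers, 29.0 and 28.0 FPKM. SNRPD1 was the lowest at 10.9 and 9.28 FPKM, so that SNRPB stood 13.6-fold above it in the second table and 15.3-fold in the first. SNRPN, an imprinted gene whose product closely resembles SmB, had 15.2 and 12.9 FPKM. It lies in a merged interval of 10 identifiers (chromosome 15, 24823637 to 25439056, hg38), among them SNHG14, listed at 8.31 and 2.54 FPKM.

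Of the proteins proper to U1, SNRPA had 85.5 FPKM in the second table and 76.9 FPKM in the first, and SNRPC, which helps U1 hold the 5′ splice site, had 87.3 and 72.6 FPKM. The pair was nearly equal within each table. The pair proper to U2 was not. SNRPA1 had 22.9 and 17.3 FPKM, and SNRPB2, which binds U2 RNA together with it, had 5.61 and 3.69 FPKM, so that SNRPA1 stood 4.08-fold and 4.67-fold above its partner. SNRPB2 was below the median level. Its log2 ratio was 0.50.

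SF3A and SF3B bind U2 at the branch point, and all 9 of their genes that match the naming rule lay above the median level. Of these, 7 were higher in the second table and 2 lower, against 57.2% higher among all genes above that level. The class median log2 ratio was 0.11, with no gene of the class past 1.5-fold. SF3B4, which contacts the pre-mRNA beside the branch point, was the highest at 112 FPKM in the second table and 95.6 FPKM in the first. SF3B2 had 103 and 94.8 FPKM, and SF3B3 89.2 and 85.0 FPKM. SF3B1, the large scaffold that clamps the branch point and is recurrently mutated in blood cancers, was near the bottom of the class, with 21.7 and 16.4 FPKM. SF3B4 stood 5.18-fold above it in the second table and 5.82-fold in the first. SF3B1 (chromosome 2, 197389784 to 197435091; ENSG00000115524) is alone at its locus, and its log2 ratio of 0.38 was the highest of the class. Against the median of all genes of like gene density SF3B1 had 0.06, and SF3B4 was then the highest of the class at 0.26. SF3B6, the small protein that sits on SF3B1, had 31.5 and 26.8 FPKM. SF3B5, a small subunit, was lower in the second table at 50.5 and 56.5 FPKM. SF3A2 was lower too, at 46.2 and 61.9 FPKM, a log2 ratio of -0.41. It shares its locus with 3 identifiers of which AP3D1 was higher in the second table (49.4 and 43.7 FPKM) and PLEKHJ1 lower (34.3 and 44.5 FPKM). The part of this shared locus in its ratio was not tested. Its partners SF3A1 (32.9 and 31.7 FPKM) and SF3A3 (20.8 and 16.05 FPKM) were higher in the second table.

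U2AF binds the polypyrimidine tract and the AG at the end of the intron. Its large subunit, U2AF2, had 123 FPKM in the second table and 132 FPKM in the first. The small subunit U2AF1 (chromosome 21, 43092956 to 43107587; ENSG00000160201) had 28.1 and 28.3 FPKM. The build also lists U2AF1L5 (chromosome 21, 6484623 to 6499261), an almost identical copy that is regarded as a false duplication of the assembly, and it had 30.0 and 29.6 FPKM. Such a copy can take a share of the fragments of U2AF1, and the sum of both was 58.1 and 57.9 FPKM. U2AF2 stood 4.37-fold and 4.66-fold above U2AF1 alone, but 2.11-fold and 2.28-fold above the sum. U2AF1L4, a paralog below the median level, had 4.07 and 5.26 FPKM within a locus of 7 identifiers. The 3 genes of the class above the median level had a median log2 ratio of -0.01.

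**Figure D2:**
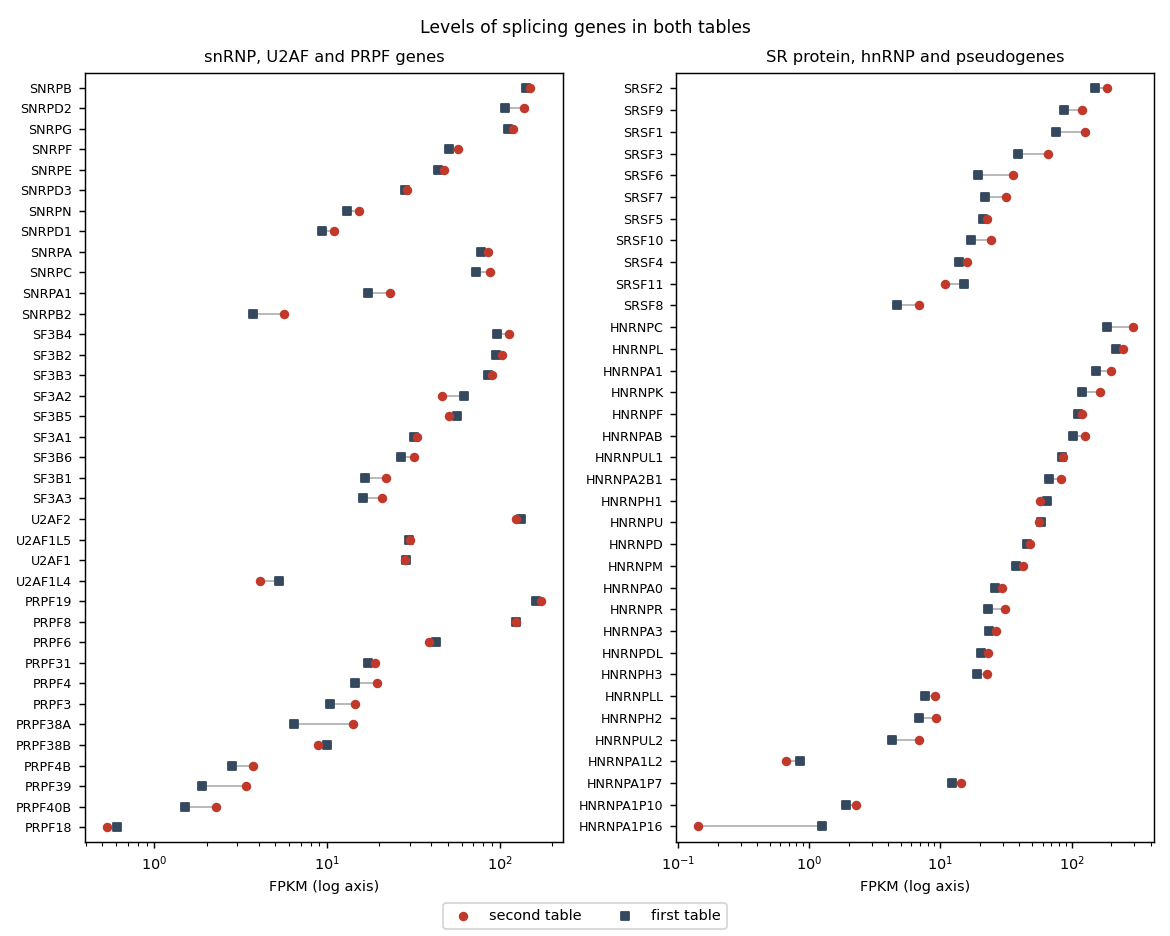
Rows are genes of the rule listed in both tables and each pair of points its level in FPKM on a log axis, with circles for the second table and squares for the first. Levels run from under 1 FPKM to 292 FPKM (HNRNPC, second table), and most pairs lie close together with the circle to the right.

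The PRPF genes are named for yeast pre-mRNA processing mutants and serve at several steps. Of 13 genes, 8 lay above the median level, at a median log2 ratio of 0.11. Of the 8, 5 were higher in the second table and 3 lower, against 57.2% higher among all genes above that level. PRPF19, a ubiquitin ligase needed for activation of the spliceosome, was the highest at 173 FPKM in the second table and 161 FPKM in the first. PRPF8, the U5 protein at the heart of the catalytic centre, had 123 and 124 FPKM. PRPF6, which bridges the parts of the tri-snRNP, had 38.9 and 42.7 FPKM. These 3 genes of high level were nearly equal in the tables. The genes of the U4 and U6 proteins had lower FPKM and, for 2 of 3, lay further apart. PRPF31 had 18.8 and 17.3 FPKM, PRPF4 had 19.3 and 14.4 FPKM and PRPF3 had 14.4 and 10.4 FPKM, with log2 ratios of 0.11, 0.40 and 0.43. PRPF31 shares its locus with NDUFA3 (17.2 and 24.8 FPKM) and 1 more identifier, and PRPF4 with SLC31A1 (7.48 and 4.37 FPKM) and 1 more. The part of these shared loci in the ratios was not tested. Mutations of PRPF8, PRPF6, PRPF31, PRPF4 and PRPF3 are known in inherited retinal degeneration.

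PRPF38A, a protein of the complex that precedes activation, was the only member past 2-fold, against 1.7% of all genes above the median level that were at least 2-fold higher. It had 13.98 FPKM in the second table and 6.39 FPKM in the first, a log2 ratio of 1.02 (chromosome 1, 52404564 to 52553487; ENSG00000134748). The gene that shares its interval, ZCCHC11, was listed at 3.11 and 3.17 FPKM. Its relative PRPF38B did not share this difference, with 8.83 and 9.96 FPKM. Below the median level, PRPF39, named for a U1 protein of yeast, had 3.39 and 1.88 FPKM, a log2 ratio of 0.61. It shares its locus with FKBP3 (5.12 and 5.44 FPKM). Also below it were the kinase PRPF4B at 3.71 and 2.81 FPKM, PRPF40B at 2.26 and 1.503 FPKM, and PRPF18, a second-step factor, at 0.528 and 0.610 FPKM.

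The SR proteins were the class furthest from equality. Of 11 genes, all above the median level, 10 were higher in the second table and 1 lower, against 57.2% higher among all genes. The class median log2 ratio was 0.46, against 0.08 for all genes. The 11 genes summed to 647 FPKM in the second table and 466 FPKM in the first. SRSF6 (chromosome 20, 43457928 to 43464247; ENSG00000124193) had 35.5 and 19.4 FPKM, a log2 ratio of 0.84. SRSF3 (chromosome 6, 36594353 to 36605600; ENSG00000112081), the smallest SR protein and an adaptor for mRNA export, had 66.0 and 38.7 FPKM, a log2 ratio of 0.76. SRSF1 (chromosome 17, 57989038 to 58008187; ENSG00000136450), the founding member and an oncoprotein in several tumours, had 128 and 75.7 FPKM, a log2 ratio of 0.75. These are the 3 of 11 SR genes past 1.5-fold, against 12% of all genes above the median level that were at least 1.5-fold higher. SRSF3 and SRSF6 were alone at their loci, and the identifiers beside SRSF1 did not exceed 1.07 FPKM. SRSF2, which also serves in transcription elongation, was the most abundant at 186 and 152 FPKM, and SRSF9 had 119 and 86.8 FPKM, but SRSF9 shares its locus with the abundant COX6A1 (181 and 157 FPKM). SRSF7, the paralog of SRSF3 that binds RNA through an added zinc knuckle, had 31.74 and 21.995 FPKM. SRSF10 had 24.1 and 17.2 FPKM, and SRSF8 6.83 and 4.63 FPKM, both with log2 ratios near that of the class.

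Not all SR genes shared the difference. SRSF5 had 22.7 FPKM in the second table and 21.1 FPKM in the first, and SRSF4 had 16.1 and 13.95 FPKM. SRSF11, an SR-related protein of the family's margin, was the lowest of all 63 members above the median level, with 10.8 and 15.02 FPKM and a log2 ratio of -0.44. It is alone at its locus (chromosome 1, 70205682 to 70253052; ENSG00000116754). Many SR genes carry a conserved poison exon whose inclusion sends the mRNA to decay, by which the proteins limit their own level. A value per gene does not separate such isoforms.

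**Figure D3:**
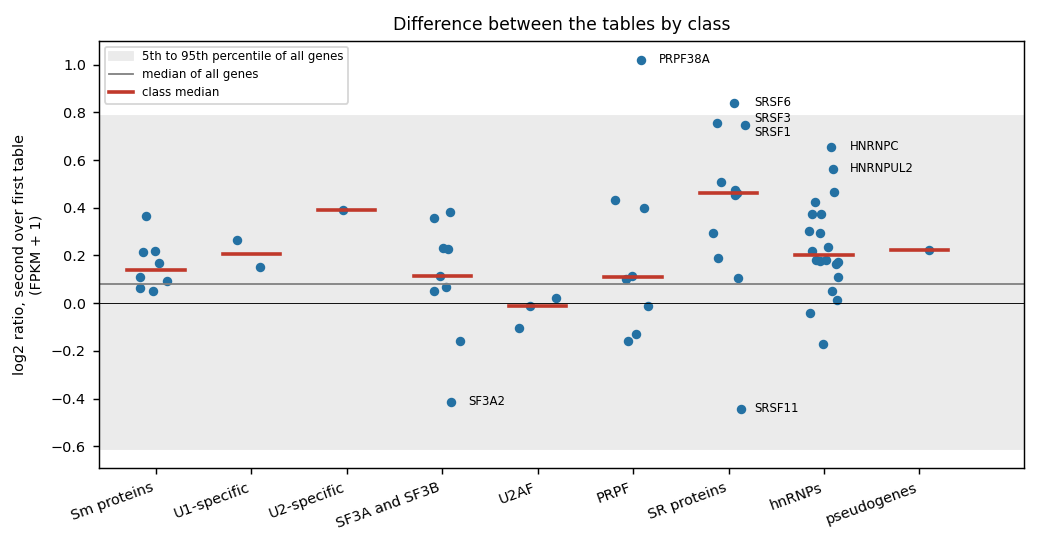
Each point is a gene above the median level of 4.93 FPKM, placed by class, with its log2 ratio of second over first (FPKM + 1) on the vertical axis and class medians as red bars. The grey band holds the middle 90% of all 7135 genes, from -0.61 to 0.78, and the SR median at 0.46 is the highest of the classes with at least 3 genes.

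The hnRNPs package nascent transcripts. Of 21 genes, 20 lay above the median level, at a median log2 ratio of 0.20. Of the 20, 18 were higher in the second table and 2 lower, against 57.2% higher among all genes above that level. HNRNPC, which binds runs of uridine and keeps U2AF2 off cryptic exons, was the most abundant member of all in the second table. It had 292 FPKM there and 185 FPKM in the first table, a log2 ratio of 0.65, and was the 1 hnRNP past 1.5-fold (chromosome 14, 21209136 to 21269494; ENSG00000092199). It is alone at its locus. Of all genes above the median level, 12% were at least 1.5-fold higher. Against the median of its gene density class HNRNPC had 0.56, under 1.5-fold, and HNRNPUL2 had 0.70, past it. HNRNPL, which binds CA repeats, had 245 and 219 FPKM and was the most abundant member in the first table. HNRNPA1, a splicing silencer and antagonist of SRSF1, had 198 and 153 FPKM in a locus shared with COPZ1 (206 and 168 FPKM). HNRNPK had 165 and 119 FPKM, a log2 ratio of 0.46. HNRNPAB had 127 and 103 FPKM, HNRNPF 120 and 111 FPKM and HNRNPA2B1 82.5 and 67.2 FPKM.

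Within the class, paralogs did not always go the same way. HNRNPH1, which binds runs of guanosine, was lower in the second table at 57.6 and 65.0 FPKM, while its close relatives HNRNPH3 (22.8 and 19.2 FPKM) and HNRNPH2 (9.25 and 6.91 FPKM) were higher. HNRNPH2 shares its locus with RPL36A, listed at 174 and 156 FPKM. HNRNPU, a nuclear scaffold protein, had 56.5 and 58.1 FPKM. HNRNPUL1 had 85.3 and 84.4 FPKM, and HNRNPUL2, in a locus of 4 identifiers, 6.81 and 4.28 FPKM, a log2 ratio of 0.56. The remaining genes above the median level, HNRNPD, HNRNPDL, HNRNPM, HNRNPA0, HNRNPR, HNRNPA3 and HNRNPLL, had ratios of 0.05 (HNRNPD) to 0.42 (HNRNPR). HNRNPA1L2, a relative of HNRNPA1, was the gene below that level, at 0.668 and 0.846 FPKM.

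Of the 15 pseudogenes, HNRNPA1P7 had 14.5 FPKM in the second table and 12.3 FPKM in the first, within a locus of 5 identifiers, and HNRNPA1P10 had 2.27 and 1.90 FPKM. HNRNPA1P16 had 0.142 and 1.25 FPKM, a log2 ratio of -0.98 on the FPKM + 1 scale, and lies in an interval of 7 identifiers. Fragments of HNRNPA1 can match its processed copies. HNRNPA1 and HNRNPA1P7 together came to 213 and 165 FPKM, a log2 ratio of 0.36, beside 0.37 for HNRNPA1 alone.

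The stretch before the transcription start is shown for the 5 members past 1.5-fold above the median level and for SRSF11, which had the lowest ratio, so that the genes furthest apart between the tables can be compared. Each is the 250 bases upstream of the 5′-most start of the gene in RefSeq (GRCh38.p14), 5′ to 3′ on the gene's strand. Capitals mark matches on either strand to 6 short motifs, which are the CCAAT box (CCAAT), the GC box (GGGCGG), the TATA box (TATAAA), the ETS core (CCGGAA), the CRE core (TGACGT) and the E-box (CACGTG).
SRSF1, chr17:58007247-58007496, minus strand: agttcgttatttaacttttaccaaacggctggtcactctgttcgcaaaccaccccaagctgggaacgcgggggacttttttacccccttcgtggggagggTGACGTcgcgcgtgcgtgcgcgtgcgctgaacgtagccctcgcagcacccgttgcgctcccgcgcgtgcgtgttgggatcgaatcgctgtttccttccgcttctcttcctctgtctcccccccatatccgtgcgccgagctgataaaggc
SRSF3, chr6:36594112-36594361, plus strand: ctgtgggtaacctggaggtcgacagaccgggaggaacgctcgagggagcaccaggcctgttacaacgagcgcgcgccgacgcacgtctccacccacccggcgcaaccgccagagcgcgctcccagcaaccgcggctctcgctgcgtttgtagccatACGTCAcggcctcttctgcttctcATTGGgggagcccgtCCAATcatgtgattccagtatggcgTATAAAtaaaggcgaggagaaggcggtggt
SRSF6, chr20:43457646-43457895, plus strand: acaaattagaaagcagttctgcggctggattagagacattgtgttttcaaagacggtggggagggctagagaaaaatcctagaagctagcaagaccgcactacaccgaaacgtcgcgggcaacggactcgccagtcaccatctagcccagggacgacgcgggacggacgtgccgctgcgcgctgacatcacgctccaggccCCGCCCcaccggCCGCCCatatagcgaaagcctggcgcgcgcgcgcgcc
SRSF11, chr1:70205446-70205695, plus strand: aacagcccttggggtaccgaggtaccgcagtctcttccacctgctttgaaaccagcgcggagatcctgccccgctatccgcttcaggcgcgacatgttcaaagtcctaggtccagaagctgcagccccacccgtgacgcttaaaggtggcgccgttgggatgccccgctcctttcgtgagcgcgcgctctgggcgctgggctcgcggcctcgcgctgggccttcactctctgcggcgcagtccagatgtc
HNRNPC, chr14:21269443-21269692, minus strand: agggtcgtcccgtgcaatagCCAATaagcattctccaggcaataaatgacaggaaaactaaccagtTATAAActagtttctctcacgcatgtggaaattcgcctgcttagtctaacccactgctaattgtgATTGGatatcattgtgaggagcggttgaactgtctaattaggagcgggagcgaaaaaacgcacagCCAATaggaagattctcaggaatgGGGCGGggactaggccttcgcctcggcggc
PRPF38A, chr1:52404352-52404601, plus strand: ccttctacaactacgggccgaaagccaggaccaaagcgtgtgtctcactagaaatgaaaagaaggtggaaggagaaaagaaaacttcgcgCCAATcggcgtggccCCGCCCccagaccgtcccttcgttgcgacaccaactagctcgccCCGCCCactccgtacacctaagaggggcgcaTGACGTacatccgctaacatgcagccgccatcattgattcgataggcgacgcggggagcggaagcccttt
The 3 SR genes with the highest ratios did not share 1 layout. SRSF3 held a TATA box, spanning 30 to 25 bases before the start, a pair of CCAAT boxes and a CRE core. SRSF1 held a CRE core and SRSF6 a pair of GC boxes, while SRSF11 held none of the 6. HNRNPC held 3 CCAAT boxes, a GC box and a TATAAA far upstream, 184 to 179 bases before the start. PRPF38A held a CCAAT box, a pair of GC boxes and a CRE core. No marked matches overlapped, and a match is a run of letters and not a measured site.

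A promoter was found for 61 of the 85 members. The ETS core was in 41.0% of their stretches, in 14.8% of the 27305 promoters of the same length and in 28.3% of the 5483 promoters of genes above the median level. Neither large family reached that last share, with the ETS core in 5 of the 20 hnRNP stretches and 2 of the 10 SR stretches. A CCAAT box was in 44.3% of the members' stretches, 33.0% of all and 36.8% of those above the median level. By class, it was in 14 of the 20 hnRNP stretches and 2 of the 10 SR stretches. The GC box was in 59.0% of the members' stretches, 42.2% of all and 71.1% of those above the median level, and by class in 16 of the 20 hnRNP stretches and 3 of the 10 SR stretches. A CRE core was in 18.0%, 7.42% and 11.3%, an E-box in 11.5%, 6.46% and 9.83%, and TATAAA in 8.20%, 11.2% and 4.80%. The members' stretches had a median of 23 CpG, beside 10 in all promoters and 22 in those of genes above the median level.

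The ratio between the tables also moved with the number of listed genes that start within 1 Mb. The 7135 genes above the median level were split into 5 classes of equal size by this number. In the class of lowest density the median log2 ratio of the 8 splicing genes was 0.22, beside 0.32 for all genes, and in the next it was 0.18 for 19 splicing genes, beside 0.23. In the third class the 16 splicing genes had a median of 0.28, beside 0.09 for all genes. In the fourth the 15 splicing genes had 0.11, beside -0.03, and in the densest the 5 splicing genes had 0.36, beside -0.14. The medians of all genes were thus lower in each denser class, and those of the splicing genes, which rest on 5 to 19 genes, had no such order. With each gene set against the median of its density class, 38 of 63 members were above it, and the members' median was 0.08. The SR median was then 0.32, with 9 of 11 genes above, and the hnRNP median 0.10, with 12 of 20 above. The Sm median was -0.04, with 3 of 8 above, and the U2AF median -0.21, with 0 of 3 above. For SF3A and SF3B 5 of 9 were above and for PRPF 6 of 8. The part of gene density in these differences was not tested.

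**Figure D4:**
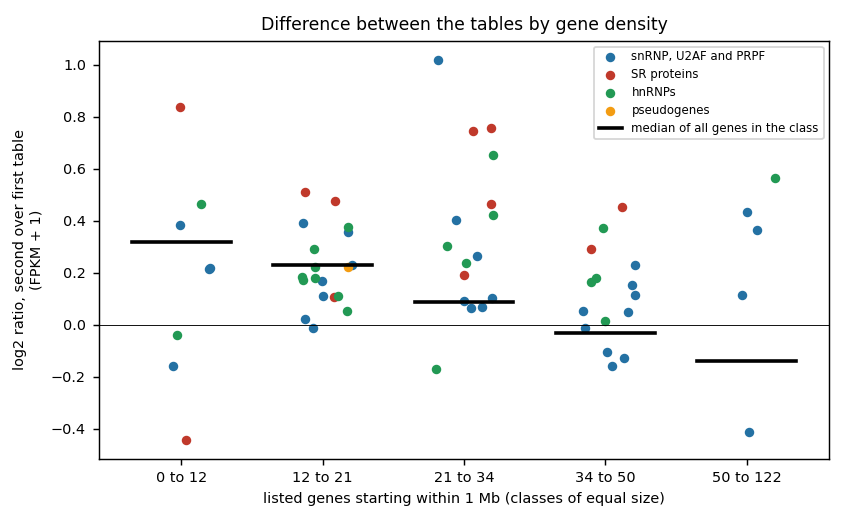
The horizontal axis has the 5 classes of gene density, given as the lowest and highest number of listed genes within 1 Mb, and the vertical axis the log2 ratio of second over first (FPKM + 1). Points are splicing genes above 4.93 FPKM and black bars the median of all genes in a class, which lies at 0.32 on the left and -0.14 on the right while the members' medians lie between 0.11 and 0.36.

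Other parts of the splicing machinery that the naming rule leaves out were read in the same way. Of 123 genes of 12 lists above the median level, 87 were higher and 36 lower in the second table, or 70.7% higher, against 57.2% of all genes, with a median log2 ratio of 0.18. At least 1.5-fold higher were 16, or 13%, against 12% of all genes, and at least 1.5-fold lower 5, or 4.07%, against 5.55%, so the shares of large differences were near those of all genes. Factors that assemble the Sm ring were higher for 11 of 12 genes, at a median of 0.39, with 3 at least 1.5-fold higher. SMN1 (13.3 and 8.24 FPKM), among these 3, and SMN2 (14.6 and 11.7 FPKM) are near-identical copies. Fragments can be divided between them, so they are not separate counts. Catalytic-step helicases and factors were higher for 8 of 8, at a median of 0.17. Partners of U5 and the tri-snRNP were higher for 8 of 10 and lower for 2, at 0.15. The assembly factors include PRMT5, which methylates Sm proteins, at 112 FPKM in the second table and 79.2 FPKM in the first. Its partner WDR77 had 74.0 and 58.2 FPKM. Exon junction and SR-related genes were higher for 13 of 17, with RNPS1 at 126 and 106 FPKM and SRRM2 at 83.6 and 82.0 FPKM. The LSM ring of U6 was higher in 2 of 6 and lower in 4, with LSM4 at 98.1 and 133 FPKM and LSM2 at 49.7 and 51.4 FPKM. The U5 helicase SNRNP200 had 91.9 and 84.5 FPKM, and SNRNP25 of the minor spliceosome had 65.2 and 73.5 FPKM.

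At least 2-fold higher among the 123 genes were 2, against 1.7% of all genes above the median level. RBM17, a factor of 3′ splice site choice, had 11.8 FPKM in the second table and 4.17 FPKM in the first. RBFOX2, which reads UGCAUG beside alternative exons, had 10.4 and 4.35 FPKM. Of 24 spliceosomal RNAs looked for, 8 were listed. All 5 above the median level were lower in the second table, with a median of -0.85, against 42.8% lower among all genes. At least 1.5-fold lower were 4 of them, against 5.55% of all genes. The most abundant, RNU2-2P, was nearly equal at 27.4 and 29.0 FPKM. Among the others were RNU12 of the minor spliceosome at 7.23 and 16.7 FPKM and RNU1-4 at 3.24 and 10.1 FPKM. These 2 of the 123 were the genes of the lists at least 2-fold lower above the median level, against 0.869% of all genes. Below it RNU1-2, at 1.79 and 6.19 FPKM, was so as well. The U1 genes are near-identical copies between which fragments can be divided. RNU1-1, RNU1-3 and RNU1-4 were among the 5 above the median level, which are thus not 5 separate RNAs. RNU2-2P lies in a locus of 4 identifiers and RNU1-4 in a locus of 6.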

How the data were processed

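U2OS RNA samples were grouped by their titles, but the 2 deposited FPKM tables name no sample in any column, per the file headers, so no sample or group was tied to a value and no test was made. The tool with which the authors made FPKM, and whether a table pools samples, are not given in the sources used here. Per the submitters' processing notes, BWA 0.7.13, cutadapt 1.12, the build hg38 and MACS 1.4.2 were used, in roles the notes do not give. The smallest deposited values, 6.2e-06 and 1.9e-06 FPKM, do not step in whole fragments, so whole reads could not be recovered.

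Ratios were taken as log2((second + 1)/(first + 1)). Adding this pseudocount of 1 FPKM makes the differences of low genes look smaller. Genes in both tables with a mean above the median were used for counts, and the main counts are set beside all such genes. FPKM is a share, so a few abundant RNAs move all others. Locus starts are counted from 0 in the tables and were raised by 1, after which they equalled the RefSeq start (GRCh38.p14) for 1824 genes alone at their locus, against 148 before. RefSeq was matched by symbol for 82 of the 85 members. Promoters were taken from RefSeq. Protein features, planned at the outset, were not analysed here. Every member could be named, but 1 is not reported here and is kept in counts and medians only. Those given in full were the 2 highest of each class, those at least 1.5-fold apart and those whose locus or copy makes a value uncertain. Of the other lists described gene by gene, the 2 highest genes or those at least 2-fold apart were given, and near-identical copies were named. Other members were added for their role. Members and lists were chosen with earlier results of these data known. The classes, with pseudogenes apart, and the motifs were set after the tables had been opened. The arithmetic was tested on simulated data. Alternatives were a pseudocount of 0.1, no filter, a mean of at least 10 FPKM, centring, genes alone at their locus, summed identifiers, equal protein-coding totals, gene density and leaving out 3 SR genes. Python 3.11.15, pandas 2.3.3, numpy 2.4.6, scipy 1.17.1 and matplotlib 3.10.9 were used.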

Additional observations from a re-analysis of the deposited data

How the results depend on the processing

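No paired analysis was possible because no value carries a replicate number, so the replicate block and leaving out a replicate were not run. Scaling to equal protein-coding totals, gene density and leaving out SRSF1, SRSF3 and SRSF6 were chosen after seeing the data. A value is said to have moved past 0.1 on the log2 scale or, for counts, past 1.5-fold. Of the recomputed values 129 moved less and 21 more, many of the 129 by construction. Single genes are unchanged by filters. No gene at least 1.5-fold apart changed sign.

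With no filter on level 1 member was at least 1.5-fold lower (HNRNPA1P16) and the PRPF median became 0.31, as 5 low PRPF genes entered. Among the 36 members alone at their locus, fewer by construction, 30 were higher, against 59.1% of all such genes, 3 at least 1.5-fold higher, against 13.2%, and 0 at least 2-fold higher, PRPF38A having been left out for its shared locus, while the SF3A and SF3B median became 0.23 and the PRPF median -0.014. PRPF38A, the 1 member past 2-fold, came under it in 3 settings, leaving 0: after centring on the all-gene median, at equal protein-coding totals, and within gene density classes. Centring also left 48 of 63 members higher (76.2%), against 52.3% of all genes. Against the median of their density class the members' median became 0.080, the Sm median -0.043, the U2AF median -0.21 and the SR median 0.32, and 1 member was at least 1.5-fold lower. SRSF6 then had 0.52, SF3A2 -0.28 and SRSF11 -0.76. Without SRSF1, SRSF3 and SRSF6, 2 members were at least 1.5-fold higher by construction. With a pseudocount of 0.1 HNRNPUL2 became the sixth member past 1.5-fold, PRPF39 had 0.82 and HNRNPA1P16 -2.48. The cause of the other moves was not tested. Depth is unknown, so counting error could not be given, and it weighs most on the low members.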
